A study of Mus musculus with 24 samples.

Results

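Many genes outside the numbered Gm, Rik and opposite-strand (os) families give rise to RNA that is scored as non-coding: extra isoforms of protein-coding genes, unspliced or intronic RNA inside their spans, and named long non-coding RNAs such as Malat1 or Mir100hg. The values described here are those of 1874 such transcripts, measured in mouse medial frontal cortex on postnatal day 28. They were chosen by name and level: the authors' non-coding table had to assign the transcript to a gene, the gene symbol had to lack the Gm number, Rik or os forms, and the FPKM (a read level scaled to transcript length and library size) had to reach 0.1 in at least 3 of the 12 libraries. Of 23698 transcripts in that table, 2643 carried such a gene name and 769 of these failed the level rule. The 1874 that passed stood beside 6850 transcripts of Gm, Rik and os genes and 4028 with no reference gene, 12752 tested in all, and belonged to 1198 genes.

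The study used C57BL/6J mice. Dnmt3l males and Dnmt3l females carried a conditional Dnmt3l knock-in together with Emx1-cre, and control males and control females carried Emx1-cre alone, with 3 libraries in each of the 4 groups. Emx1-cre recombines in the excitatory neurons and part of the glia of the dorsal forebrain, so that interneurons, microglia and vessels of the same tissue are not of the recombined lineage, and every group shares the Cre transgene. RNA was depleted of ribosomal RNA and made into libraries that keep the strand. The labels do not say whether libraries of a group came from separate animals, so p-values measure only the spread between these samples.

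Long non-coding RNAs act in the nucleus or cytoplasm without being translated: some scaffold nuclear bodies, some host microRNAs or small nucleolar RNAs in their introns, and some are antisense to an imprinted gene. Transcripts that share a gene with an mRNA may be alternative isoforms, retained introns or independent RNAs from the same span, and in bulk tissue a change of such RNA cannot be told apart from a change in the number of cells that make it. Dnmt3l has no methyltransferase activity of its own and helps Dnmt3a and Dnmt3b to set new DNA methylation, chiefly in germ cells.

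The knock-in was visible in the mRNA table, where Dnmt3l had 603, 609 and 521 counts in Dnmt3l males and 1179, 532 and 600 in Dnmt3l females, against 1, 1 and 0 in control males and 0, 0 and 3 in control females. Library totals ran between 1467252 and 1839502 counts in the non-coding table and between 22144970 and 32100277 in the mRNA table. The non-coding total was 6.96 ± 0.736% of the mRNA total in Dnmt3l libraries and 5.68 ± 0.285% in control libraries (SD, n = 6 each, exact permutation test, two-sided p = 0.00433), whereas the transcripts described here took 21.5 ± 0.384% and 21.2 ± 0.236% of non-coding counts (exact permutation p = 0.158). Some libraries stand apart, which touches the results. Control male 3 and control females 1 and 2 held 1078, 1328 and 1297 counts of Alb, the liver albumin gene, against at most 12 in every other library, and Dnmt3l female 1 stood apart from the other Dnmt3l libraries.

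Several of the genes host microRNAs, and 3 of these hosts are shown here with their cargo. Mir100hg on chromosome 9 and Mir99ahg on chromosome 16 are related hosts whose microRNAs share seeds, and Mirg is a maternally expressed imprinted RNA on chromosome 12 that spans 26 mature microRNAs. The sequences below are the RefSeq mature forms on GRCm38.p6, 5′ to 3′, with the seed (bases 2 to 8) in capitals. They are shown because the seeds tie the hosts together: miR-100-5p and miR-99a-5p share one seed and miR-125b-5p is made from both hosts, at chr9:41581940-41581961 and chr16:77646279-77646300 on the plus strand, whereas the Mirg microRNAs shown have seeds of their own.
mmu-miR-100-5p (Mir100hg, chr9:41531437-41531458, plus strand): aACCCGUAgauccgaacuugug
mmu-miR-99a-5p (Mir99ahg, chr16:77598940-77598961, plus strand): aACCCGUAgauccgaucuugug
mmu-miR-125b-5p (Mir100hg and Mir99ahg): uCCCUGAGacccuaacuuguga
mmu-let-7c-5p (Mir99ahg, chr16:77599672-77599693, plus strand): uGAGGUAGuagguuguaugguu
mmu-miR-134-5p (Mirg, chr12:109734145-109734166, plus strand): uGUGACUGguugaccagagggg
mmu-miR-382-5p (Mirg, chr12:109733781-109733802, plus strand): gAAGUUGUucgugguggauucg

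Of the microRNA hosts given here, Mirg passed the test on summed non-coding counts and the others did not, and hosts were not tested against each other. Counts of all transcripts of a host were added within each library and expressed as CPM, scaled to the library's non-coding total with edgeR's TMM factors. Mirg rose: its sum was 811, 740 and 724 CPM in Dnmt3l males and 562, 687 and 763 CPM in Dnmt3l females, against 601, 582 and 522 CPM in control males and 503, 583 and 468 CPM in control females, a log2 change of 0.39 ± 0.091 (SE, edgeR's quasi-likelihood test, adjusted p = 0.041). Dnmt3l female 1, at 562 CPM, lay within the control range and the other 5 Dnmt3l libraries above it. Mir100hg, with 18 transcripts, had 1753 ± 65.4 CPM in Dnmt3l libraries and 1685 ± 107 CPM in control libraries (SD, n = 6 each, log2 change 0.06, adjusted p = 0.734). Mir99ahg had 67.3 ± 6.94 CPM in Dnmt3l libraries and 73.7 ± 6.45 CPM in control libraries (log2 change -0.13, adjusted p = 0.677), and Rian, the imprinted neighbour of Mirg, 1360 ± 132 and 1436 ± 156 CPM (log2 change -0.08, adjusted p = 0.712). The series also holds small RNA libraries of the same groups. Mature microRNAs were not examined here, so these values are of the host transcripts alone.

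Most of the transcripts came from protein-coding genes. RefSeq matched 1791 of them: 1470 transcripts of 1042 protein-coding genes held 72.2% of the counts of the set, 288 transcripts of 93 long non-coding RNA genes held 18.3%, 33 transcripts of 22 genes of other types held 4.10%, and the remaining 83, of 41 genes without a match, held 5.33%. One transcript each was listed for 869 genes and 8 or more for 18 genes, up to 21 for AI480526. The host genes were long: the median genomic span was 43642.5 bases, against 7983 bases for the genes of the Gm, Rik and os transcripts. Transcript lengths ran between 206 and 60471 bases (median 1749.5), 133 were 10000 bases or longer, and 45 were longer than the span given for their own gene. Depth was low for many, with a median of 14.4 counts per library, 820 transcripts under a mean of 10 and 389 at 100 or more.

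The highest levels were those of short, abundant RNAs. A 485-base transcript of Malat1, the nuclear speckle RNA, averaged 90629 FPKM and had between 30271 and 44145 counts in every library, with a log2 change of 0.07 (adjusted p = 0.704). It was followed by BX681418.1 at 11271 FPKM, Ntf3 at 8036, Cypt15 at 6874, Cmss1 at 5149, Filip1l at 3491, Plekhm3 at 2902 and Dcaf8 at 1737, each a mean over 12 libraries, and edgeR's test called none of the 8. The Ntf3 transcript, 656 bases, was far more abundant in reads than its gene's mRNA. It had 5450, 6154 and 6053 counts in Dnmt3l males and 5059, 6354 and 5874 in Dnmt3l females, against 5371, 4805 and 5850 in control males and 6786, 4858 and 4690 in control females, whereas the neurotrophin 3 gene itself had between 15 and 70 counts in the much deeper mRNA table. Cmss1 and Filip1l, whose gene spans overlap on opposite strands of chromosome 16, were the unstable pair among the highest. Control male 1 alone had 17014 counts of the Cmss1 transcript and 7550 of the Filip1l transcript, against at most 6396 and 2216 in any other library.

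Read as sums per gene, the non-coding transcripts exceeded the mRNA-table count of their own gene in 177 of the 1064 genes present in both tables. Several of those with the most such counts were long genes. Tenm2, a teneurin adhesion receptor, had a mean of 26414 non-coding counts per library against 6128 in the mRNA table, and Rora, a nuclear receptor, had 15797 against 3401. Ctnna3, an alpha-catenin, had 12833 against 136, and Csmd1, a complement-regulating membrane protein, 10400 against 10165. Counts of a gene and of an overlapping non-coding transcript could not be checked against the reads, and the sources used here do not say whether the authors counted by strand.

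Averaged over both sexes, few of these transcripts changed with Dnmt3l. In all, 9 passed edgeR's quasi-likelihood test at a Benjamini-Hochberg adjusted p of 0.05 over all 12752 transcripts. Of these, 5 were higher in Dnmt3l libraries, from Blnk, Sfxn5, Sfi1, Fam205a3 and Wwox, and 4 were lower, from Arhgap15, Dchs1, Trmt61b and Pkd2. Those 9 are 0.480% of 1874, beside 0.298% of all tested transcripts called higher and 0.196% called lower, so the rate in this class is near that of the table. The median log2 change was -0.03 here and -0.02 over all transcripts. TMM scaling tends to hold this median near 0, and rises and falls cancel in it, so it does not give the size of single changes. In edgeR's test 253 of the 1874, or 13.5%, had an unadjusted p under 0.05, beside 12.3% of all tested transcripts. DESeq2's Wald test called 41 higher and 46 lower, where it called 1.94% of all tested transcripts higher and 2.41% lower.

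**Figure D1:**
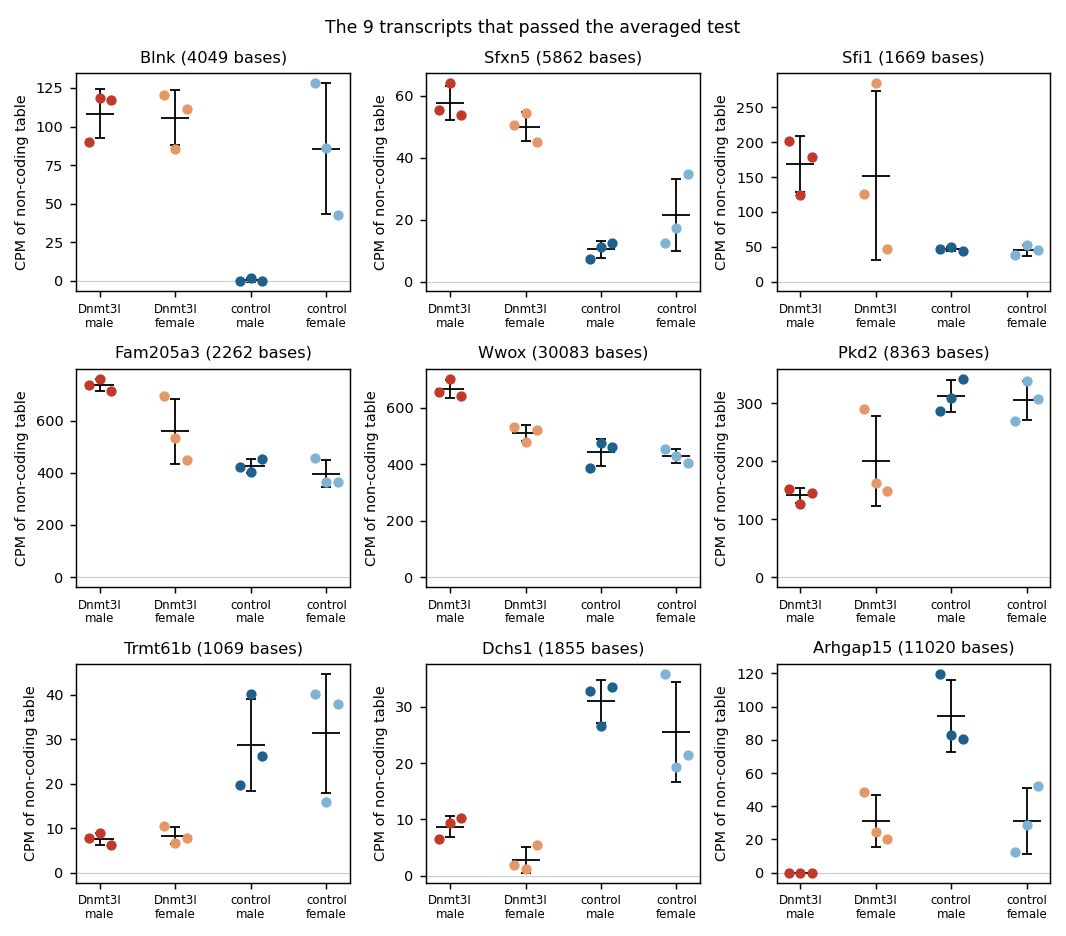
CPM of the non-coding table (y axis, with a line at 0) for the 9 transcripts called in the averaged test, one panel each, with one point per library in the 4 groups (x axis) and a bar at the group mean with error bars of 1 SD (n = 3). Sfxn5 and Wwox lie higher and Dchs1 and Trmt61b lower in all 6 Dnmt3l libraries than in any control, whereas Blnk, Arhgap15, Sfi1, Fam205a3 and Pkd2 separate in males and overlap in females.

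The higher transcripts came from genes of unlike function, and the positions given in brackets are those of the gene on GRCm38. Sfxn5 encodes a mitochondrial sideroflexin (chr6:85213049-85333422, minus strand). Its 5862-base transcript TCONS_00451472 had 93, 116 and 95 counts in Dnmt3l males and 78, 97 and 74 in Dnmt3l females, against 12, 18 and 23 in control males and 23, 26 and 55 in control females. The groups did not overlap, and the log2 change was 1.84 ± 0.268 (SE, adjusted p = 0.0134). The other Sfxn5 transcript, TCONS_00451475, had between 15 and 54 counts in Dnmt3l libraries and between 6 and 28 in controls and was not called on its own, and the sum of both rose by a log2 change of 1.69 (adjusted p = 0.00289).

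Wwox, an oxidoreductase with WW domains encoded in a very long gene (chr8:114439655-115352708, plus strand), gave a 30083-base transcript with a small difference, wider in males than in females. It had 1100, 1273 and 1138 counts in Dnmt3l males and 818, 853 and 856 in Dnmt3l females, against 626, 770 and 845 in control males and 841, 645 and 644 in control females, a log2 change of 0.42 ± 0.0746 (adjusted p = 0.0374). After scaling to CPM the Dnmt3l libraries all lay above the controls. Other Wwox transcripts, TCONS_00541152 and TCONS_00541153, had log2 changes of -1.83 and -0.53 (adjusted p = 0.359 and 0.515). TCONS_00541152 had between 2 and 483 counts in Dnmt3l libraries and between 324 and 902 in controls, and the sum over the 5 Wwox transcripts had a log2 change of -0.33 (adjusted p = 0.316).

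Sfi1, a centrin-binding protein of the centrosome (chr11:3131850-3193463, minus strand), had 339, 225 and 316 counts of its called transcript in Dnmt3l males and 193, 508 and 76 in Dnmt3l females, against 76, 80 and 80 in control males and 69, 79 and 71 in control females. The log2 change was 1.80 ± 0.342 (adjusted p = 0.0451), and Dnmt3l female 3 was at the control level. Fam205a3 belongs to a tandem family with near-identical copies on chromosome 4 (chr4:42318272-42324068, plus strand), so its counts are uncertain. Its called transcript had 1235, 1377 and 1266 counts in Dnmt3l males and 1066, 951 and 741 in Dnmt3l females, against 682, 650 and 829 in control males and 842, 549 and 580 in control females (log2 change 0.64 ± 0.107, adjusted p = 0.0273). The 2 female groups overlapped and the 2 male groups did not.

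Blnk, the adaptor of the B cell receptor (chr19:40928927-40994535, minus strand), had the largest rise among the called transcripts, and the per-library counts show what it consists of. TCONS_00279395 had 151, 214 and 207 counts in Dnmt3l males and 185, 153 and 183 in Dnmt3l females, against 0, 3 and 0 in control males and 236, 129 and 68 in control females. The counts missing from control males stood under other transcripts of the same gene. Control male 1 had 154 counts of TCONS_00279394, and control males 2 and 3 and control female 3 had 210, 183 and 95 of TCONS_00279396, both of which were at 0 in all Dnmt3l libraries. The single transcript had a log2 change of 3.82 ± 0.461 (adjusted p = 0.00578), whereas the sum of the 3 Blnk transcripts ran between 86.8 and 121 CPM in Dnmt3l libraries and between 86.4 and 129 CPM in controls, with a log2 change of 0.02 (adjusted p = 0.999). For Blnk the libraries thus differed in which isoform the counts stood under, and the sum over isoforms did not pass the test.

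The lower transcripts held 2 genes with clear differences. Dchs1 is a giant protocadherin that binds Fat4 (chr7:105752990-105787654, minus strand). Its 1855-base transcript had 11, 17 and 18 counts in Dnmt3l males and 3, 2 and 9 in Dnmt3l females, against 53, 43 and 61 in control males and 66, 29 and 34 in control females. All Dnmt3l libraries lay below all controls, and the log2 change was -2.48 ± 0.388 (adjusted p = 0.019). The transcript is short of counts, but it is the gene's only non-coding transcript in the table, so its summed counts are the same. Scaled and tested among the sums per gene, its log2 change was -2.46 (edgeR's test, adjusted p = 0.00195).

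Trmt61b, named for a mitochondrial tRNA methyltransferase and listed with the type lncRNA in the RefSeq table (chr17:71557027-71598755, minus strand), has no row in the mRNA table. Its called transcript had 13, 16 and 11 counts in Dnmt3l males and 16, 12 and 13 in Dnmt3l females, against 32, 65 and 48 in control males and 74, 24 and 60 in control females (log2 change -1.91 ± 0.326, adjusted p = 0.0322). All 5 of its tested transcripts had a log2 change below 0, and their sum, 61.3 ± 13.8 CPM in Dnmt3l libraries and 99.7 ± 17 CPM in controls (SD, n = 6 each), fell (log2 change -0.70, adjusted p = 0.0469).

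Pkd2, the polycystin-2 cation channel (chr5:104459450-104505819, plus strand), had 254, 228 and 258 counts of its 8363-base transcript in Dnmt3l males and 445, 289 and 244 in Dnmt3l females, against 462, 499 and 624 in control males and 497, 506 and 487 in control females (log2 change -0.88 ± 0.158, adjusted p = 0.0376). In CPM, Dnmt3l female 1 lay within the control range and the other 5 Dnmt3l libraries below it. Arhgap15, a Rac GTPase-activating protein (chr2:43748824-44395953, plus strand), had 0, 0 and 0 counts of its 11020-base transcript in Dnmt3l males and 75, 44 and 33 in Dnmt3l females, against 193, 134 and 147 in control males and 23, 43 and 83 in control females. The averaged adjusted p was 0.00599, and the 2 other Arhgap15 transcripts together had at most 12 counts in any library, so the sum over the gene fell too (log2 change -3.88, adjusted p = 0.000609).

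Next by p among the lower ones, Sox2ot, the long RNA overlapping Sox2 (chr3:34104270-34682619, plus strand), missed the threshold. Its transcript TCONS_00338010 had 477, 478 and 504 counts in Dnmt3l males and 572, 564 and 680 in Dnmt3l females, against 656, 773 and 757 in control males and 699, 646 and 694 in control females (log2 change -0.41 ± 0.0876, adjusted p = 0.0783). Of the 8 Sox2ot transcripts 6 had a log2 change above 0, and the sum had a log2 change of 0.16 (adjusted p = 0.25). Over all 1874 transcripts, 12 (0.640%) lay higher in all 6 Dnmt3l libraries than in any control and 17 (0.907%) lower, near the 0.525% and 0.831% of all tested transcripts.

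How far the 9 calls held depended on the libraries. Leaving out the 3 control libraries that held liver RNA, here and below, keeps control female 3 alone of its group. Fewer calls in that fit cannot be told apart from the effect of fewer libraries. Blnk, Arhgap15 and Sfxn5 stayed called with any 1 of the 12 libraries left out, Dchs1 with 7 of the 12, and the others with 1 to 3. Without the 3 control libraries that held liver RNA, Arhgap15 alone was still called (adjusted p = 0.0366). Without Dnmt3l female 1, 14 were higher and 23 lower, and scaling the non-coding counts by the totals of the mRNA table, which moves the median log2 change of all transcripts to 0.34, called 101 higher and 6 lower in place of 5 and 4.

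By sex, the difference lay in the same few transcripts. In males 3 of the 1874 passed, Blnk and Sfxn5 higher and Arhgap15 lower, beside 0.141% of all tested transcripts, and 190 had an unadjusted p under 0.05. The Blnk transcript had a ratio of counts of 184 between Dnmt3l and control males (95% counting interval 62.8 to 897), the Sfxn5 transcript a log2 change of 2.47 (adjusted p = 0.0381), and the Arhgap15 transcript was at least 163-fold lower in Dnmt3l males, against a floor of 3 counts over the group (adjusted p = 0.003). DESeq2 called 75 in males, beside 3.52% of all tested transcripts.

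In females edgeR called 0 of the 1874 and 0% of all tested transcripts, with 120 at an unadjusted p under 0.05, while DESeq2 called 17, beside 1.07% of all tested transcripts, and limma on log2(FPKM + 0.1) called 2, beside 0.0471%. The female log2 changes of the 3 male calls were 0.30 for Blnk (adjusted p = 0.951), 1.22 for Sfxn5 (adjusted p = 0.722) and 0.00 for Arhgap15 (adjusted p = 1). A test of the difference itself, the male minus the female effect, called Blnk (log2 7.03, adjusted p = 0.0401) and Arhgap15 (log2 -10.31, adjusted p = 0.0401), beside 0.0235% of all tested transcripts, with 115 at an unadjusted p under 0.05. Neither was called under limma, under edgeR's filterByExpr, or without any one of Dnmt3l males 1 to 3, Dnmt3l females 1 and 2, control males 1 and 3 and control female 2, and 1 of them was called without Dnmt3l female 3, control male 2 or control female 1. The Sfxn5 effect was not called different between the sexes.

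The genes that host these transcripts were called far more often than the transcripts, in a table with many more counts. Of 926 host genes tested in the mRNA table, 300 were higher and 215 lower in Dnmt3l libraries, 55.6%, beside 25.2% of all 15786 genes called higher and 26.4% called lower. Among genes of the 9 called transcripts, Arhgap15 fell with its transcript (log2 change -0.85, adjusted p = 0.00524) and Sfxn5 and Sfi1 rose with theirs (0.41, adjusted p = 0.00171, and 0.61, adjusted p = 0.000294). Dchs1 and Pkd2 went the other way, with gene log2 changes of 0.78 (adjusted p = 0.0015) and 0.53 (adjusted p = 0.000479). The genes Blnk, Fam205a3 and Wwox were not called (adjusted p = 0.367, 0.321 and 0.473). Host gene calls were fewer without the 3 liver-bearing controls, a fit that keeps control female 3 alone of its group. On log2(FPKM + 0.1) limma called 176 higher and 217 lower.

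Cell type markers moved with these gene differences. All 5 microglial markers were higher in Dnmt3l libraries, with a summed level of 215 to 385 CPM of the mRNA table against 188 to 222 CPM in controls, and all 5 endothelial markers were, at 186 to 313 CPM against 152 to 168 CPM. Of the 5 astrocyte markers 4 were higher and 1 lower (6669 to 11567 against 6210 to 6601 CPM), 4 of 5 oligodendrocyte markers (3236 to 9804 against 3396 to 6458 CPM) and 3 of 3 precursor markers (140 to 322 against 138 to 178 CPM) were higher with sums that overlapped between the groups, and 3 of 5 interneuron markers were lower and 1 higher (454 to 544 against 594 to 690 CPM). Of 5 excitatory neuron markers 2 were higher and 1 lower (5497 to 6499 against 4449 to 5195 CPM), and none of these markers was at 0 throughout. Lower too were 3 of 5 liver markers (50.7 to 532 against 143 to 315 CPM) and 3 of 3 red blood cell markers (69.3 to 194 against 103 to 501 CPM). So were 1 of 4 striatal markers (45.1 to 223 against 176 to 319 CPM) and 1 of 3 choroid plexus markers (12.4 to 46.5 against 14.1 to 43.3 CPM). In each of these types the sums overlapped. Of the liver markers, Alb, Apoa1, Apoa2 and Serpina1b had their highest counts in control male 3 and control females 1 and 2. None of these had more than 25 counts in any other library. The liver sum also holds Ttr. Dnmt3l female 1 had the lowest of the 6 Dnmt3l sums for astrocytes, oligodendrocytes, precursors, microglia and endothelium. It was also lowest for liver, choroid plexus and red blood cells, and not for excitatory neurons, interneurons or striatum. The part of these differences in the gene and transcript values was not tested.

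**Figure D2:**
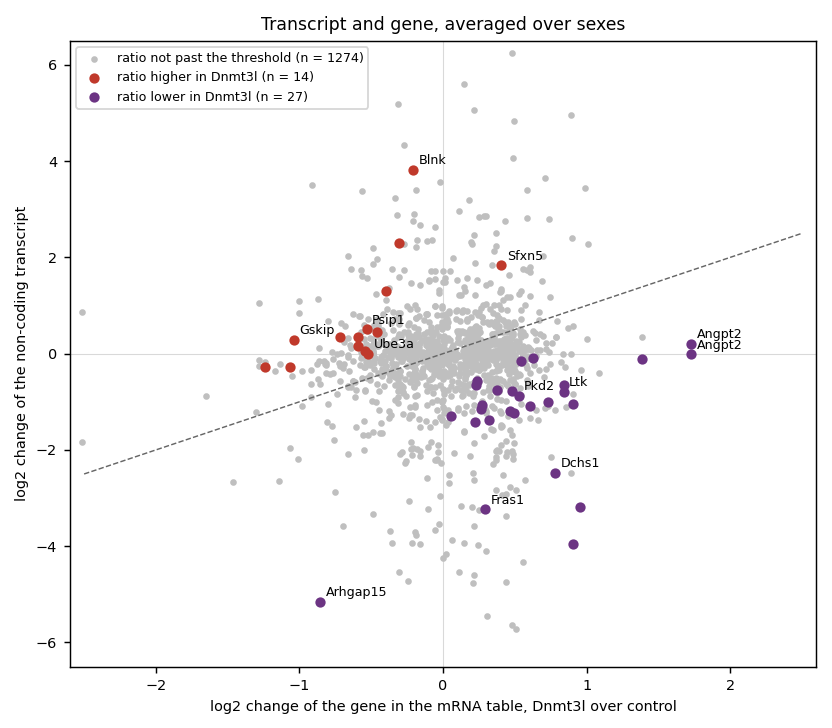
Log2 change, Dnmt3l over control, averaged over sexes, of each non-coding transcript (y axis) against that of its gene in the mRNA table (x axis), for the transcripts whose gene was tested, with the transcripts called in the ratio test coloured by direction and a few named. The axes show 1312 points and leave out 3 that lie beyond them. Called transcripts below the diagonal sit mostly right of 0 on the gene axis, where Dchs1 and Pkd2 lie.

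Whether a transcript changed by a different amount than its gene was tested on the log2 ratio of the 2, each in CPM of its own table with a prior count of 2, by limma. Of 1315 transcripts whose gene was tested, 14 had a higher ratio and 27 a lower one in Dnmt3l libraries, 3.12% in all, beside 1.08% of all ratios called higher and 2.08% called lower, and 301 had an unadjusted p under 0.05. The median log2 change was -0.10, as over all ratios. In most of these the gene, and not the transcript, was called. Among the 27 with a lower ratio the gene was called higher in 23 and lower in 1 and the transcript itself in 3, with medians of 0.53 for the gene and -1.05 for the transcript. Among the 14 with a higher ratio the gene was called lower in 12 and higher in 1 and the transcript in 2, with medians of -0.54 for the gene and 0.35 for the transcript.

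**Figure D3:**
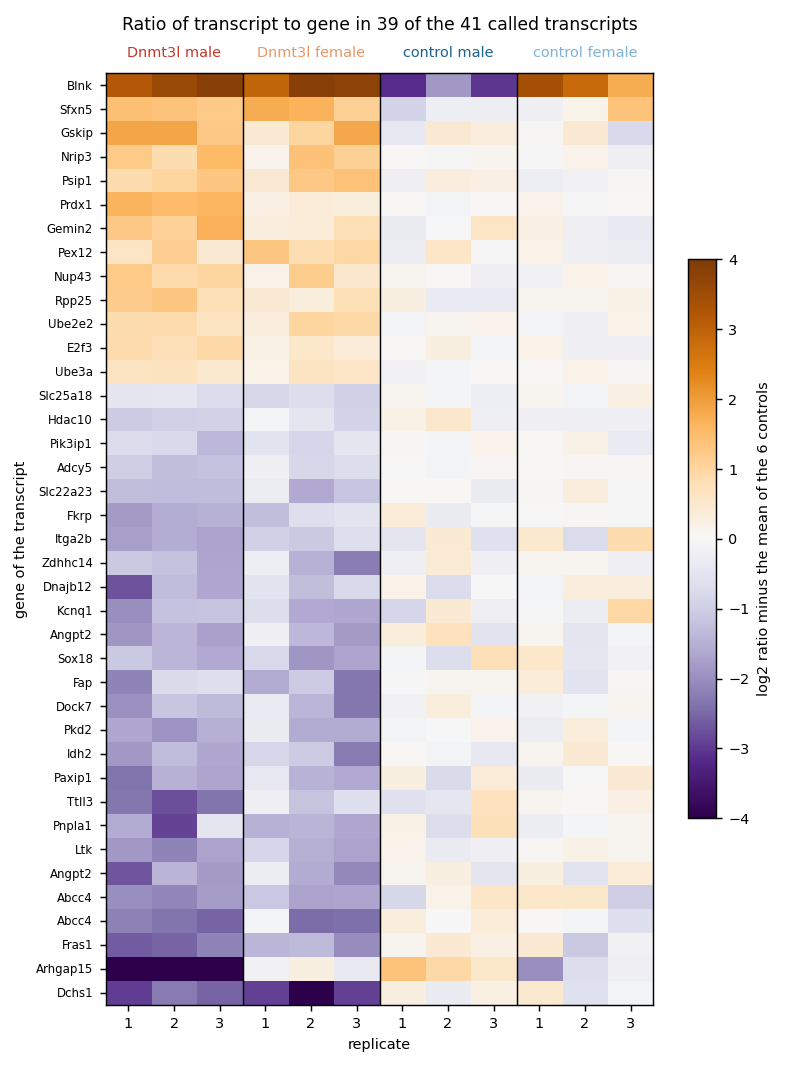
Log2 ratio of transcript to gene in each library minus the mean of the 6 control libraries (colour), for 39 of the 41 transcripts called in the ratio test (rows, by gene) in the 3 replicates of each group (columns, Dnmt3l groups left of control groups). Dnmt3l female 1 is the palest of the Dnmt3l columns, with a median over the 41 of 0.42 in the called direction, against 1.26 to 1.77 in the other 5; the rows were chosen by this contrast.

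The largest falls in ratio were those of Dchs1, Arhgap15, Fras1 and Abcc4, at -3.01, -2.20, -2.01 and -2.01 on the log2 scale. For Dchs1 the ratio fell by 3.01 ± 0.32 on the log2 scale (SE, adjusted p = 0.000985), with the gene at 59 ± 17 CPM in Dnmt3l libraries and 33.8 ± 3.92 CPM in controls (SD, n = 6 each) and the transcript counts given above. It was called in each sex, in males at -2.66 (adjusted p = 0.0242) and in females at -3.36 (adjusted p = 0.0254), where it is the single call. Pkd2 moved in the same 2 directions, with the gene at 60.6 ± 6.67 and 42 ± 2.93 CPM and a ratio change of -1.42 ± 0.23 (adjusted p = 0.0171).

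Ltk, a leukocyte receptor tyrosine kinase (chr2:119751320-119760431, minus strand), was called on the ratio with a transcript that was not called on its own. The transcript had 52, 42 and 47 counts in Dnmt3l males and 68, 55 and 37 in Dnmt3l females, against 90, 71 and 86 in control males and 106, 82 and 77 in control females (log2 change -0.79, adjusted p = 0.129), so the counts of the 2 genotypes did not overlap. The gene rose, at 16.9 ± 2.66 CPM in Dnmt3l libraries and 9.35 ± 0.686 CPM in controls, and the ratio fell by 1.63 ± 0.168 (adjusted p = 0.000985). Fras1, an extracellular matrix protein of basement membranes, had 0, 0 and 1 counts of its transcript in Dnmt3l males and 1, 2 and 1 in Dnmt3l females, against 8, 10 and 10 in control males and 10, 2 and 6 in control females, and its ratio change was -2.01 ± 0.301 (adjusted p = 0.0128). One control female overlapped with the Dnmt3l libraries at 2 counts.

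Arhgap15 fell in ratio by 2.20 ± 0.286 (adjusted p = 0.00467), since its transcript was lower by more than its gene, at 2.66 ± 1.24 CPM in Dnmt3l libraries and 4.75 ± 0.633 CPM in controls. Abcc4, an efflux transporter, had 18, 18 and 12 counts of TCONS_00173048 in Dnmt3l males and 40, 12 and 11 in Dnmt3l females, against 47, 37 and 49 in control males and 39, 33 and 26 in control females, with a gene that was higher (41.2 ± 9.01 against 21.7 ± 1.72 CPM) and a ratio change of -2.01 ± 0.385 (adjusted p = 0.0349). For Angpt2, the vascular ligand of Tie2, the gene was called and neither of its 2 transcripts was, with the gene at 4.14 ± 1.58 CPM in Dnmt3l libraries and 1.24 ± 0.367 CPM in controls. Its transcript TCONS_00515742 had 24 to 45 counts in Dnmt3l libraries and 26 to 55 in controls, and the ratio change was -1.64 ± 0.344 (adjusted p = 0.0349). The more abundant TCONS_00515744 had 308 to 400 and 254 to 404 counts, with a log2 change of 0.21 (adjusted p = 0.513) and a ratio change of -1.39 (adjusted p = 0.0364). Pnpla1, a lipid hydrolase of the skin, had a ratio change of -1.59 (adjusted p = 0.0458).

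Among the higher ratios, Blnk led with 3.51 ± 0.327 (adjusted p = 0.000817) for the isoform described above, and Sfxn5 had 1.43 ± 0.294 (adjusted p = 0.0349). Other ratios rose beside genes that fell: Gskip, a GSK3-binding protein, had a gene level of 8.96 ± 3.01 CPM in Dnmt3l libraries and 18.2 ± 2.23 CPM in controls and a ratio change of 1.37 ± 0.298 (adjusted p = 0.0364).

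Psip1, the chromatin-binding co-activator LEDGF, had a transcript that was not called on its own. This 13124-base transcript had 371, 455 and 512 counts in Dnmt3l males and 391, 534 and 570 in Dnmt3l females, against 291, 344 and 390 in control males and 328, 270 and 318 in control females (log2 change 0.51, adjusted p = 0.0714). The gene was lower, at 108 ± 21.1 CPM in Dnmt3l libraries and 156 ± 11 CPM in controls, and the ratio change was 1.04 ± 0.19 (adjusted p = 0.0349). Nrip3 and Gemin2, a subunit of the SMN complex, had ratio changes of 1.05 and 0.92 (adjusted p = 0.0349 and 0.0364). Prdx1, a peroxiredoxin, was called at 0.95 on a transcript with 9 counts in all, 3, 2 and 4 of them in Dnmt3l males and 0 in every other library. In Dnmt3l females its ratio still lay 0.24 to 0.37 above the control mean. With 0 counts of the transcript, that value is set by the gene and the prior count.

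Ube3a, the ubiquitin ligase that neurons express from the maternal allele (chr7:59228750-59311536, plus strand), had a long non-coding transcript that was not called beside a gene that fell. The 10775-base transcript had 3368, 4085 and 3321 counts in Dnmt3l males and 3599, 4598 and 3274 in Dnmt3l females, against 3376, 3452 and 3770 in control males and 3767, 3562 and 3662 in control females, a log2 change of 0.00 ± 0.0766 (adjusted p = 1). The gene had 147 ± 29.1 CPM in Dnmt3l libraries and 210 ± 12.2 CPM in controls, so the ratio rose by 0.53 ± 0.117 (adjusted p = 0.0375). Snhg14, the opposite-strand host whose span overlaps the end of Ube3a, had a summed level of 1361 ± 125 CPM in Dnmt3l libraries and 1241 ± 77.1 CPM in controls (log2 change 0.13, adjusted p = 0.415). Ube3a was looked at after its values were seen.

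By sex, 6 ratios were higher and 8 lower in males, beside 1.08% of all ratios, and 1 was lower in females, beside 0.0717%. The male minus female difference in ratio was called for Blnk (log2 5.34, adjusted p = 0.00534) and Arhgap15 (log2 -6.12, adjusted p = 0.000853), beside 0.143% of all ratios. Blnk, Ltk, Arhgap15 and Dchs1 stayed called with any 1 library left out. The count of 41 was 142 without Dnmt3l female 1 (65 higher and 77 lower) and 4 to 13 without any one of the other 11 libraries, 2 without the 3 liver-bearing controls, where Blnk and Arhgap15 remained, and 114 (94 higher and 20 lower) with the mRNA table's scaling. It was 7 (2 higher and 5 lower) where reads of the nearest reference transcripts were left out of the gene count.

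Adding up all non-coding transcripts of a gene before testing gave another view. It removes shifts between isoforms, but it also changes the set of features that are scaled and tested together. Of the 1198 genes 10 were higher and 12 lower, 1.84%, beside 1.89% of all summed features. The genes higher were Nav2, BX681418.1, AI480526, Mirg, Gt(ROSA)26Sor, Pcdh15, Igf2r, Psip1, Sfi1 and Sfxn5, and those lower Cd38, Arhgap15, Fras1, Dchs1, Paxip1, Ercc6l2, Dcaf12, Igfbp6, Pkd2, Trmt61b, Cerox1 and Marf1, named here after their values were seen. Blnk, Wwox and Fam205a3 left the list. Several genes that joined it, among them BX681418.1, Psip1 and Fras1, had 1 transcript in the set, so no isoforms of the set were added up for them. In edgeR's test their adjusted p was 0.13, 0.0714 and 0.108 for the transcript and 0.0387, 0.0179 and 0.0412 for the sum. What part the changed set of features had in such calls was not tested.

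Some of these are known RNAs or marker genes. Cerox1, a cytoplasmic RNA that raises the expression of respiratory complex I subunits, had summed levels of 123, 107 and 159 CPM in Dnmt3l males and 147, 95.3 and 149 CPM in Dnmt3l females, against 204, 286 and 231 CPM in control males and 177, 185 and 186 CPM in control females. All 6 Dnmt3l libraries lay below all controls (log2 change -0.69 ± 0.14, adjusted p = 0.0211). Gt(ROSA)26Sor, the non-coding gene at the Rosa26 locus that is often used for knock-ins, had 295, 284 and 290 CPM in Dnmt3l males and 452, 340 and 323 CPM in Dnmt3l females, against 266, 260 and 225 CPM in control males and 253, 227 and 246 CPM in control females (log2 change 0.42 ± 0.099, adjusted p = 0.0467). The groups did not overlap, and the labels do not give the locus of the knock-in.

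Igf2r, an imprinted receptor for insulin-like growth factor 2, had 297 ± 40.4 CPM in Dnmt3l libraries and 215 ± 24.2 CPM in controls (log2 change 0.46, adjusted p = 0.0373), and its gene rose in the mRNA table as well (0.41, adjusted p = 0.00483). Pcdh15, a protocadherin of oligodendrocyte precursors and hair cells, had 426 ± 62.9 and 311 ± 24.8 CPM (log2 change 0.45, adjusted p = 0.0355), with a gene log2 change of 0.64 (adjusted p = 0.000495). Cd38, a NAD-consuming ectoenzyme, had 0.39 ± 0.47 CPM in Dnmt3l libraries and 6.35 ± 2.93 CPM in controls (adjusted p = 0.0179), few reads in either. The ratio of the sum to the gene was called in 31 genes higher and 52 lower of 926, 8.96%, beside 8.71% of all such ratios.

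Within genes of many transcripts the single changes scattered around 0. AI480526, with 21 transcripts, had log2 changes between -2.37 and 5.05, 14 of them above 0, and none was called (lowest adjusted p = 0.288), although its sum rose, at 906 ± 108 CPM in Dnmt3l libraries and 701 ± 49.9 CPM in controls (log2 change 0.37, adjusted p = 0.0392). Mir100hg had 9 of 18 above 0 and Celrr 7 of 14. All 5 transcripts of Lrrtm1, a synaptic adhesion protein, were above 0, between 0.05 and 0.30, and none was called. Morrbid, an RNA of short-lived myeloid cells, had 10 of 11 above 0 (lowest adjusted p = 0.402). Others lay below 0: all 6 transcripts of AU023762, between -1.89 and -0.21 (lowest adjusted p = 0.538), all 5 of Gramd2, between -3.70 and -0.03 (lowest adjusted p = 0.379), and all 5 of Trmt61b, between -1.91 and -0.11, where 1 was called.

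**Figure D4:**
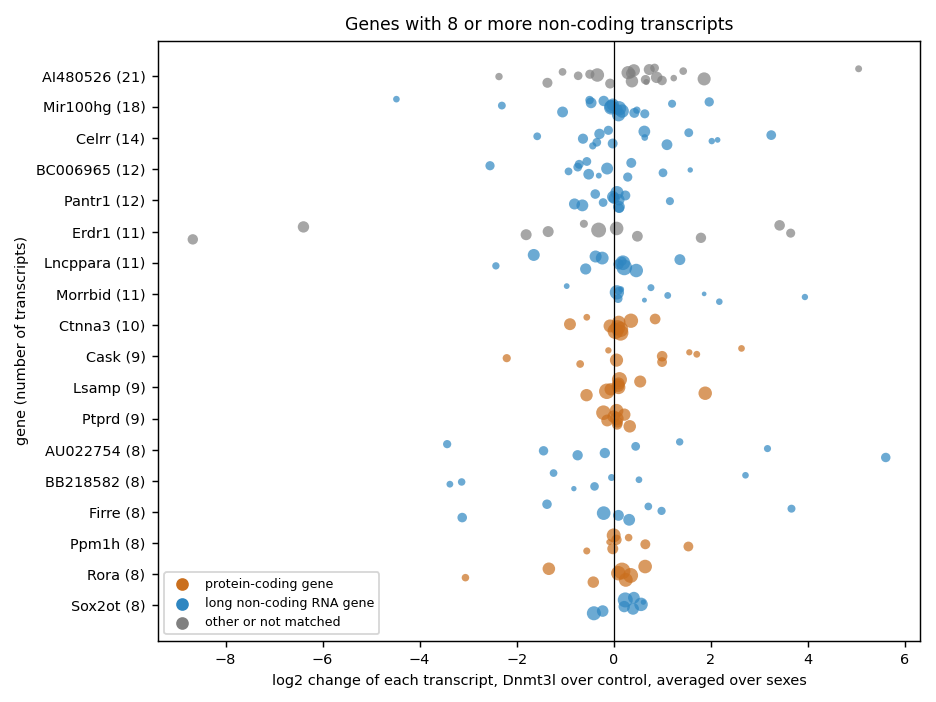
Log2 change, Dnmt3l over control, averaged over sexes (x axis), of every transcript of the genes with the most transcripts (rows, with their number of transcripts in brackets), one point per transcript, with the line at 0 marking no change. Points lie on both sides of 0 in every gene with 8 or more transcripts, and none of these genes has a called transcript.

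The host genes were also grouped by function. Of 25 lists, 2 had no transcript here, the clustered protocadherins and the oligodendrocyte and precursor markers, and in each of the other lists edgeR's averaged test called 0 transcripts. Together they held 251 transcripts, of which 34 had an unadjusted p under 0.05 and DESeq2 called 13. The ratio of transcript to gene, which tests the difference itself, was called for 4 of them: Ube3a higher, and Kcnq1, which is in the lists of imprinted genes and of potassium channels, Hdac10, a histone deacetylase, and Dnajb12, a chaperone of the endoplasmic reticulum, lower. Of all genes tested in the mRNA table, 25.2% were called higher and 26.4% lower, while 0.494% of all tested transcripts were called, and no list was tested against the rest of the table. In axon guidance, 7 of 9 genes were higher and 0 lower, while 0 of 16 transcripts were called and 1 had an unadjusted p under 0.05, with a median log2 change of -0.19. In postsynaptic scaffolds and synaptic adhesion 4 of 5 genes were higher, against 0 of 21 transcripts, and in calcium and sodium channels 5 of 6 genes against 0 of 9. Epha5, a guidance receptor, had a log2 change of 0.35 for the more abundant of its 2 transcripts (adjusted p = 0.429), -1.14 for the other (adjusted p = 0.707) and a gene log2 change of 0.36 (adjusted p = 0.00607). The 9 transcripts of Ptprd, a synaptic receptor phosphatase, had log2 changes from -0.21 to 0.33 with a median of 0.06, and their sum -0.03 (adjusted p = 0.942), beside a gene log2 change of 0.44 (adjusted p = 0.000331). Cacna1e, an R-type calcium channel, had a transcript log2 change of -0.28 (adjusted p = 0.26) beside a gene that was higher by 0.39 (adjusted p = 0.00269).

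Of 4 excitatory neuron marker genes 3 were lower, Mef2c, Foxp1 and Foxp2, transcription factors of cortical neurons, with gene log2 changes of -0.66, -0.54 and -0.49 (adjusted p = 0.00394, 0.00123 and 0.0136), and 0 of the list's 10 transcripts were called. In the separate list of 5 excitatory markers used to check the tissue, 2 genes were higher and 1 lower, and their summed level was 5497 to 6499 CPM in Dnmt3l libraries and 4449 to 5195 CPM in controls. Zfp zinc finger genes had 2 of 15 higher and 5 lower, against the 25.2% and 26.4% of all genes, with 0 of 17 transcripts called. Potassium channels had 5 of 17 genes higher and 1 lower, Kcnab1, an auxiliary subunit whose gene fell by 0.82 on the log2 scale (adjusted p = 0.000142) while its transcript had -0.24 (adjusted p = 0.323).

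Among the 48 transcripts of nuclear and brain long non-coding RNAs, 11 had an unadjusted p under 0.05, beside 12.3% of all tested transcripts, and the median log2 change was 0.10. Cerox1 TCONS_00233160 had 46, 32 and 50 counts in Dnmt3l males and 26, 9 and 27 in Dnmt3l females, against 51, 83 and 87 in control males and 77, 110 and 61 in control females (log2 change -1.41 ± 0.323, adjusted p = 0.0974). Neat1, the scaffold of paraspeckles, had 14, 26 and 42 counts of TCONS_00282344 in Dnmt3l males and 2, 17 and 16 in Dnmt3l females, against 5, 12 and 8 in control males and 6, 6 and 3 in control females (1.39 ± 0.544, adjusted p = 0.347). Pantr1 TCONS_00026760 had -0.81 ± 0.273 (adjusted p = 0.275). Of 36 transcripts of small RNA hosts 3, and of 5 transcripts of the X inactivation centre RNAs Ftx and Jpx 0, had an unadjusted p under 0.05.

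Imprinted genes contributed 17 transcripts, 4 of them with an unadjusted p under 0.05, beside 12.3% of all tested transcripts. Mirg TCONS_00121064 had a log2 change of 0.40 (adjusted p = 0.127), Igf2r 0.44 (adjusted p = 0.112) and H19 -1.67 (adjusted p = 0.429). Kcnq1, whose span holds the antisense imprinting RNA, had 2 long transcripts. TCONS_00513466, 16555 bases, had 792, 726 and 767 counts in Dnmt3l males and 511, 778 and 614 in Dnmt3l females, against 539, 557 and 653 in control males and 474, 459 and 515 in control females (0.35 ± 0.0926, adjusted p = 0.154). TCONS_00513464 had a log2 change of -0.11 (adjusted p = 0.848) beside a gene that rose at a very low level (1.19 ± 0.477 CPM in Dnmt3l libraries and 0.455 ± 0.222 CPM in controls), and its ratio fell by 1.37 (adjusted p = 0.0403).

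The FPKM rule admitted transcripts with few counts at its edge. Just inside were Slc6a8 TCONS_00594164, whose third-highest FPKM was 0.12, and Morrbid TCONS_00327270 at 0.13, and just outside were Rubie TCONS_00178339 at 0.07 and Lncppara TCONS_00195213 at 0.01. The Slc6a8 transcript, of the creatine transporter gene, had 0, 44 and 0 counts in Dnmt3l males and 0, 0 and 29 in Dnmt3l females, against 0, 0 and 0 in control males and 0, 0 and 1 in control females, and was not called (adjusted p = 0.337).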

How the data were processed

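The authors deposited, per 12 libraries of ribosomal RNA-depleted, stranded RNA-seq, expected counts and FPKM per transcript in a non-coding table and an mRNA table. Per the submitters' processing notes, which give no roles or order, the build was GRCm38 and the tools were HTSeq 0.6.1, bedtools 2.17.0, HISAT2 2.0.1, DESeq2, cutadapt 1.9.1 and bcl2fastq 2.17.1.14. The coordinates are those of the gene in the authors' deposited table, not of the transcript.

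Expected counts were rounded to whole numbers and tested with edgeR 4.0.16 (quasi-likelihood, TMM, R 4.3.3), with genotype and sex as 4 groups and the average, male, female and male minus female contrasts, at a Benjamini-Hochberg adjusted p of 0.05 over 12752 transcripts at 0.1 FPKM or more in 3 libraries. The mRNA table was summed per gene and tested likewise over 15786 genes at 0.5 FPKM or more in 3 libraries. Ratios were tested with limma 3.58.1 on log2 CPM differences (prior count 2). DESeq2 1.42.0, limma on deposited FPKM (log2, pseudocount 0.1), other scalings, filters, a replicate block and leaving out libraries were alternatives. The scripts were tested on simulated data. Replicates differed by more than sampling noise, and the counting interval of a ratio of counts is the exact Clopper-Pearson one at 95% on how the counts split between groups, which covers counting error only.

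Members and gene lists were chosen with earlier results of these data known. Named by rule were, with at most 1 transcript per gene in each set, the 8 highest FPKM, the called transcripts of each contrast, the 8 largest ratio changes in each direction, up to 4 lowest p per list and 2 on each side of the FPKM threshold. Other names are given as chosen after their values were seen. RefSeq GRCm38.p6 gave gene types and microRNA sequences. Results on 2 genes that the rule names are not reported here.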

Additional observations from a re-analysis of the deposited data

Results flagged for a closer look

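The male and the female effect of Dnmt3l differed by the test of their difference for 2 transcripts, each flagged on its count and on its ratio to the gene. For Blnk TCONS_00279395 the male minus female difference was 7.03 on the log2 scale for the count and 5.34 for the ratio. Its counts were 151, 214 and 207 in Dnmt3l males against 0, 3 and 0 in control males, and 185, 153 and 183 in Dnmt3l females against 236, 129 and 68 in control females, and the other Blnk transcripts held 154, 210 and 183 counts in control males. For Arhgap15 TCONS_00318572 the difference was -10.31 for the count and -6.12 for the ratio. Its counts were 0, 0 and 0 in Dnmt3l males against 193, 134 and 147 in control males, and 75, 44 and 33 in Dnmt3l females against 23, 43 and 83 in control females. The fitted size of the Arhgap15 difference depends on the prior count, since Dnmt3l males were at 0.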

How the results depend on the processing

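Counts of calls moved with the method, and the cause was not tested. Leaving out the 3 liver-bearing controls keeps control female 3 alone of its group, so the effect of fewer libraries cannot be told apart there. In place of 5 higher transcripts, scaling by the mRNA table called 101, DESeq2's Wald test 41, edgeR's filterByExpr (added after seeing the data) 8, the replicate block 3, and leaving out the 3 liver-bearing controls 0. In place of 4 lower, DESeq2 called 46, the replicate block 2 and leaving out the liver-bearing controls 1. In place of 3 in males, upper-quartile factors called 5, the mRNA table's scaling 21, DESeq2 75, limma on FPKM 7, no FPKM filter 6, filterByExpr 8 and the male libraries alone 9. In place of 0 in females, DESeq2 called 17 and limma 2. In place of 2 for the male minus female difference, DESeq2 called 9, and limma, the replicate block, filterByExpr and leaving out the liver-bearing controls 0. In place of 41 ratios, a prior count of 5 called 79, FPKM ratios 27, the mRNA table's scaling 114, no FPKM filter 10, the replicate block 12, leaving out the liver-bearing controls 2 and gene counts without the nearest reference transcripts 7, where the Rpp25 ratio turned to -0.26. Host gene calls went to 279 of 515 without the liver-bearing controls. Summing per gene gave 22 genes in place of 9, and 83 ratios in place of 39. The share called over all features rose too, to 1.89% of summed counts from 0.494% of transcripts. For ratios it was 8.71% of the summed ones and 3.16% of the single ones.

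With 1 library left out, the ranges were 2 to 14 higher, 1 to 23 lower, 2 to 8 in males, 0 to 1 in females, 0 to 2 for the difference between sexes, 4 to 142 ratios and 453 to 639 host genes, the highest of each except the difference being without Dnmt3l female 1. Higher calls were 2 without Dnmt3l male 1, 2 or 3, Dnmt3l female 2, control male 2 or 3, or control female 3. Lower calls were 1 without Dnmt3l male 1 or control male 3. Male calls were 7 without Dnmt3l female 3. Of the values of single transcripts under alternatives, 2929 kept direction and side of the threshold, 607 became weaker, 53 stronger, 116 moved and 1 reversed. Samples of the same replicate number correlated between -0.0218 and 0.0136 across genotypes. With 3 libraries per group such values cannot show whether same-numbered samples were paired, and the labels do not say. Low counts limit 820 of the transcripts.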
